A study of Danio rerio with 24 samples.

Results

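Gene expression in regenerating retinal pigment epithelium (RPE) was compared between 2 times after injury, in libraries titled MTZ+ DMSO 4dpi and MTZ+ DMSO 2dpi. All 3 libraries of each title were used, 6 of the 24 libraries of the series, and every gene of the deposited count tables entered the comparison. The larvae carried the zebrafish transgene rpe65a:nfsB-eGFP, in which a promoter active in RPE drives a nitroreductase fused to eGFP. Cells with the enzyme turn the prodrug metronidazole (MTZ) into a toxic product, and the MTZ+ larvae received 10 mM MTZ for 24 hours at 5 days post-fertilization (dpf). The 4dpi larvae were 9 dpf old and the 2dpi larvae 7 dpf. All 6 libraries came from larvae kept in the vehicle DMSO from 4 dpf, 24 hours before MTZ, and raised in the pigment inhibitor PTU until 5 dpf. Unablated MTZ- DMSO larvae of the same 2 ages, 3 libraries each, and MTZ+ larvae given 2 μM rapamycin in place of the vehicle alone, 3 libraries at each time, stand beside them. Unless rapamycin is named, every library below is a DMSO library, and the groups are called MTZ+ 4dpi, MTZ+ 2dpi, MTZ- 4dpi and MTZ- 2dpi.

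The RPE is a single layer of pigmented cells between the photoreceptors and the choroid. It re-forms the visual chromophore in the visual cycle, engulfs shed photoreceptor outer segments, and lays down part of the basement membrane on which it rests. The RPE of larval zebrafish can regrow after ablation, from RPE cells at the edge of the injury that divide and move inward. Early after injury such tissue typically expresses cytokines and immediate early transcription factors, and later it turns toward the genes of differentiated RPE.

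Each library was made from eGFP-positive cells sorted from about 80 eyes of 40 larvae, with at most 1000 cells, so that a library is a pool of animals and the sort also keeps any other cell that carries eGFP. The deposited counts summed to 20607731, 30716905 and 20950454 in MTZ+ 4dpi libraries, against 22230490, 22842916 and 23195175 in MTZ+ 2dpi libraries. Mitochondrial genes took 7.86, 10.2 and 11.9% of the counts in MTZ+ 4dpi, against 6.87, 6.83 and 9.25% in MTZ+ 2dpi. The 10 most abundant genes took 15.8 to 16.9% in MTZ+ 4dpi and 10.5 to 13.1% in MTZ+ 2dpi. The raw sample name in the labels holds a date, read here as the collection day. Each library has its own date within a group, and no date is shared between the 2 times. Time after injury, age and collection day therefore cannot be told apart. The letter in the raw sample name that goes with MTZ+ DMSO elsewhere goes with MTZ+ rapamycin in replicate 2 at 4dpi, and the reverse. The GEO title was followed. The library titled MTZ+ rapamycin 4dpi replicate 2 held 1342 CPM (counts scaled to a common library size) of the markers of Müller glia, the supporting cells of the retina, against 3762 and 5791 CPM in the other rapamycin libraries of that time and 38351 CPM in the one titled MTZ+ 4dpi replicate 2, where the other two of its group held 26536 and 23122 CPM. Counts without MTZ+ 4dpi replicate 2 are given below. The first principal component of all 24 libraries, with 42.4% of the variance, placed the MTZ+ 4dpi libraries at 23.8, 66.0 and 53.2, against 76.2, 88.9 and 79.9 for MTZ+ 2dpi, while the MTZ- libraries lay between -91.3 and -48.6.

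The libraries held the markers of RPE. All 9 RPE markers were counted in all 6 libraries and summed to 46133, 25135 and 27866 CPM in MTZ+ 4dpi, against 22475, 16046 and 31600 CPM in MTZ+ 2dpi and 69071 to 87366 CPM in MTZ- libraries of both ages. The 2 times overlapped in this sum. Markers of Müller glia were also present, and their 10 genes summed to 26536, 38351 and 23122 CPM in MTZ+ 4dpi, against 14876, 17577 and 10495 CPM in MTZ+ 2dpi. The MTZ- libraries held 7709 to 15873 CPM of them and the MTZ+ rapamycin libraries 1342 to 5791 CPM. In every MTZ- library most of this sum was glutamine synthetase (glula), with 5212 to 12440 CPM. There the markers slc1a2b and aqp1a.1 had only 23.6 to 57.0 and 12.2 to 41.4 CPM. The marker cx43 ran the other way, with 2096 to 2827 CPM in MTZ- 4dpi against 288 to 426 CPM in MTZ+ 4dpi. The largest single part in every MTZ+ library was apoeb, a lipoprotein gene, with 14110, 25110 and 13341 CPM in MTZ+ 4dpi and 7525, 9192 and 4707 CPM in MTZ+ 2dpi. Together apoeb and glula made up most of the sum in every MTZ+ library. The marker gfap had only 10.3, 29.2 and 7.66 CPM in MTZ+ 4dpi and 5.97, 5.75 and 2.47 CPM in MTZ+ 2dpi. The sum is therefore no measure of the share of Müller cells. Of the 10 Müller markers, 7 were higher in every MTZ+ 4dpi library than in every MTZ+ 2dpi library, against 10.2% of all genes. A positive change with an unadjusted p under 0.05 in edgeR's test was reached by 3, against 8.04% of all genes. Their part in the results below was not tested. Since these are bulk samples, fewer cells of a type and less RNA per cell cannot be told apart.

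At 4dpi the phospholipid transfer gene pltp, the proline dehydrogenase prodha, the selenium carrier selenop, progranulin (grnb) and the laminin chain lama5 were higher, by 7.57, 3.79, 3.37, 2.505 and 3.1 times. The proteasome gene psmc3, the ribosome assembly factor grwd1, the cytokine partner crlf1a, the lipase inhibitor angptl4 and the co-chaperone bag3 were lower, by 2.02, 2.82, 5.32, 3.89 and 2.67 times. Of 18939 genes tested, 90 were differentially expressed genes (DEGs), with 59 higher and 31 lower at 4dpi. A gene counted as a DEG when edgeR's quasi-likelihood test gave an adjusted p under 0.05, the log2 fold change was beyond 1 in size, and the higher of the group means reached 1 TPM, a read count scaled by gene length and depth. This is 0.475% of the genes tested, 0.312% higher and 0.164% lower. All 90 DEGs were without overlap between the times, and the rule for naming many of them required it. For a DEG, no overlap is therefore no separate support. At an unadjusted p under 0.05 there were 3104 genes (16.4%), 1522 higher (8.04%) and 1582 lower (8.35%). The median log2 fold change of all tested genes was 0.04. Of the genes named first in this paragraph, only prodha was a DEG whichever compared library was left out. By contrast, selenop, lama5 and grwd1 were DEGs in no such fit.

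The number of DEGs depended on single libraries. It was 9 without MTZ+ 4dpi replicate 1, 107 without replicate 2 and 17 without replicate 3 of that group. It was 87 without MTZ+ 2dpi replicate 1, 11 without replicate 2 and 52 without replicate 3. Fitted on the 6 libraries alone, no gene passed, although 2585 had an unadjusted p under 0.05. Libraries outside the comparison set part of the spread as well, and the count was 239, 246 or 264 when 1 of 3 MTZ+ rapamycin libraries was left out (2dpi replicate 3, 4dpi replicate 1 or 4dpi replicate 2) and 48 without MTZ+ rapamycin 4dpi replicate 3. All 90 DEGs had the same sign in every one of these fits. In each of the 6 fits that left out 1 compared library, the DEGs prodha and arhgef1b passed, and 14 of the 90 passed in none.

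**Figure D1:**
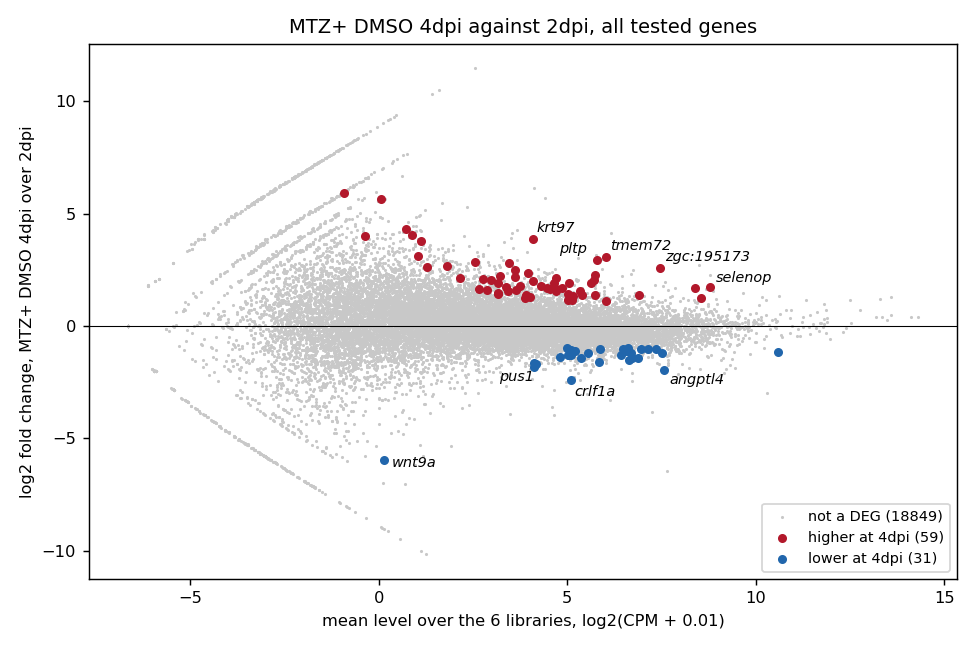
Log2 fold change, MTZ+ DMSO 4dpi over 2dpi, against the mean level in the 6 libraries, log2(CPM + 0.01), with 1 dot for each of 18939 genes. The 59 DEGs higher at 4dpi (red) and 31 lower (blue) lie mostly between 1 and 4 log2 units from 0, and the diagonal lines of grey dots at the left are genes with counts in 1 or a few libraries.

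**Figure D2:**
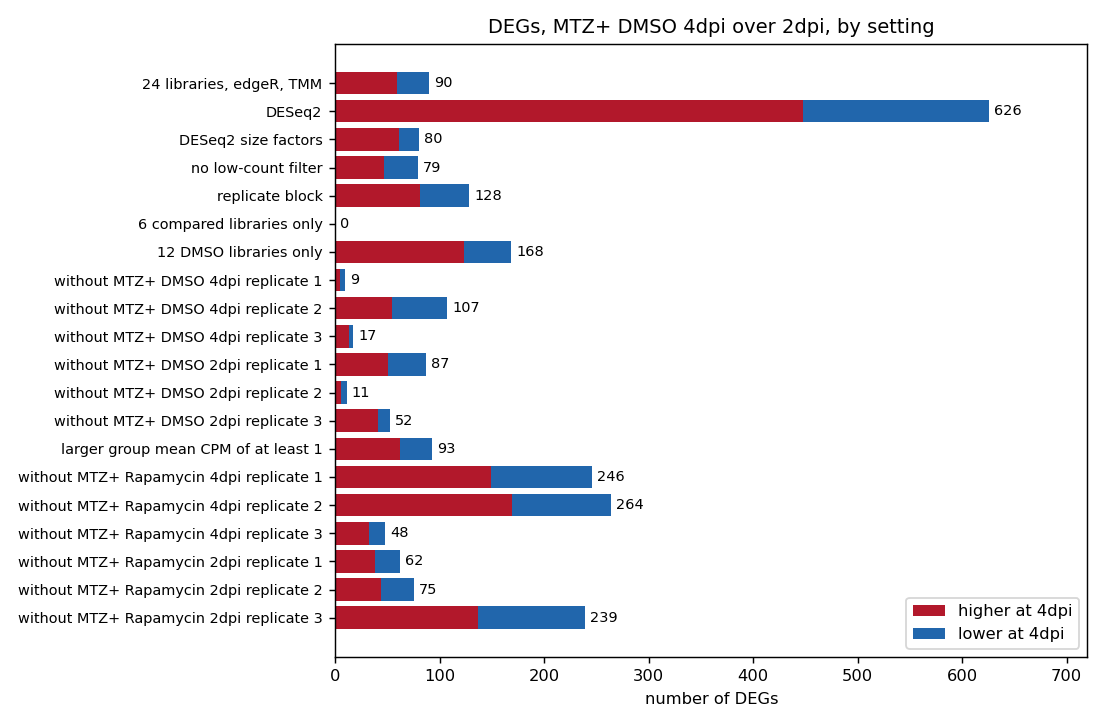
Number of DEGs, MTZ+ DMSO 4dpi over 2dpi, in the fit of all 24 libraries and in each other setting, as bars from 0 split into genes higher (red) and lower (blue) at 4dpi. The bars run between 0 with the 6 compared libraries alone and 626 with DESeq2, against 90 in the fit used here.

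Some of the DEGs higher at 4dpi encode proteins that act on lipids, proline or selenium. The phospholipid transfer protein gene pltp (chromosome 6, 55357188 to 55393309 of GRCz11) had 123, 95.1 and 76.6 CPM in MTZ+ 4dpi, against 23.7, 9.14 and 6.07 CPM in MTZ+ 2dpi, 7.57-fold higher (log2 fold change 2.92, SE 0.46, adjusted p = 0.0103). Every 4dpi library lay above every 2dpi one, and MTZ- libraries held 30.3, 20.3 and 23.2 CPM at 4dpi and 29.02, 14.01 and 17.4 CPM at 2dpi, so that pltp at 4dpi was also above unablated RPE of the same age. For prodha (chromosome 21, 5888641 to 5920826), the proline dehydrogenase of mitochondria, MTZ+ 4dpi libraries held 72.4, 61.8 and 102 CPM, against 20.5, 15.6 and 26.1 CPM in MTZ+ 2dpi (log2 fold change 1.92, SE 0.28, adjusted p = 0.00625). It rose between the same ages in MTZ- larvae as well, with 177, 183 and 251 CPM at 4dpi against 32.2, 35.2 and 27.2 CPM at 2dpi (log2 fold change 2.69, adjusted p = 9e-06). The selenium carrier selenop (chromosome 8, 31435452 to 31443334) had 815, 695 and 533 CPM in MTZ+ 4dpi, against 156, 273 and 178 CPM in MTZ+ 2dpi (log2 fold change 1.75, SE 0.38, adjusted p = 0.0432). The groups did not overlap, yet selenop passed in 0 of the 6 fits with a library left out. The transcription factor gene klf15, which acts on metabolic genes in other tissues of mammals, had 15.9, 16.6 and 29.7 CPM in MTZ+ 4dpi, against 2.84, 2.302 and 5.79 CPM in MTZ+ 2dpi (log2 fold change 2.51, SE 0.47, adjusted p = 0.0161). A subunit of cytochrome c oxidase, cox7a1, had 19.3, 8.64 and 18.4 CPM in MTZ+ 4dpi, against 4.02, 3.55 and 2.28 CPM in MTZ+ 2dpi (log2 fold change 2.23, SE 0.46, adjusted p = 0.033). Both genes were higher in all MTZ+ 4dpi libraries. With 1 library left out, pltp passed in 5 of 6 fits (it was lost without MTZ+ 2dpi replicate 2, adjusted p = 0.0543), klf15 in 2 and cox7a1 in 1.

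The DEGs irs1, sesn1 and map3k5 encode signalling proteins. The insulin receptor substrate irs1 had 28.4, 37.3 and 39.7 CPM in MTZ+ 4dpi, against 13.1, 10.8 and 9.38 CPM in MTZ+ 2dpi (log2 fold change 1.66, SE 0.30, adjusted p = 0.0148), and the sestrin sesn1, an inhibitor of mTORC1 signalling, had 614, 465 and 446 CPM in MTZ+ 4dpi, against 138, 148 and 186 CPM in MTZ+ 2dpi (log2 fold change 1.69, SE 0.34, adjusted p = 0.0308). Both were also higher at the later age in MTZ- larvae, irs1 with 97.6, 75.04 and 87.3 CPM at 4dpi against 20.7, 23.5 and 41.7 CPM at 2dpi and sesn1 with 1828, 1074 and 591 CPM at 4dpi against 406, 274 and 370.1 CPM at 2dpi. The stress kinase map3k5 had 48.7, 42.9 and 51.1 CPM in MTZ+ 4dpi, against 23.8, 14.3 and 14.7 CPM in MTZ+ 2dpi (log2 fold change 1.44, SE 0.26, adjusted p = 0.0148). None of these genes overlapped between the times, which held for all DEGs. Among the 6 fits that left out a library, irs1 passed in 3, map3k5 in 2 and sesn1 in 1. The gene irs1 overlaps nyap2a in the annotation and sesn1 overlaps armc2 and si:ch211-51a19.5, and reads of overlapping genes could not be told apart here.

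Other DEGs higher at 4dpi encode lysosomal, protease-related and matrix proteins. Progranulin (grnb, chromosome 24, 36339242 to 36364591), a lysosomal and secreted protein, had 49.4, 51.5 and 52.5 CPM in MTZ+ 4dpi, against 19.6, 23.05 and 18.6 CPM in MTZ+ 2dpi (log2 fold change 1.32, SE 0.25, adjusted p = 0.0161). The 3 MTZ+ 4dpi values were within the 82.7, 60.4 and 44.7 CPM of MTZ- 4dpi and close to the 52.2, 50.2 and 51.4 CPM of MTZ- 2dpi. The aspartic protease gene napsa had 35.7, 20.6 and 21.3 CPM in MTZ+ 4dpi, against 8.95, 4.505 and 1.76 CPM in MTZ+ 2dpi (log2 fold change 2.35, SE 0.46, adjusted p = 0.0256), and the galectin gene lgals3b, which encodes a sugar-binding protein, had 96.02, 55.47 and 112 CPM in MTZ+ 4dpi, against 28.1, 15.12 and 11.9 CPM in MTZ+ 2dpi (log2 fold change 2.26, SE 0.45, adjusted p = 0.0308). The carboxypeptidase inhibitor lxn, which overlaps gfm1, had 27.2, 14.6 and 20.5 CPM in MTZ+ 4dpi, against 9.58, 4.24 and 4.59 CPM in MTZ+ 2dpi (log2 fold change 1.76, SE 0.30, adjusted p = 0.0124). All 4 were higher in every 4dpi library. The laminin chain lama5 (chromosome 23, 9567334 to 9768700), a part of basement membranes, had 37.3, 43.1 and 37.6 CPM in MTZ+ 4dpi, against 14.2, 11.5 and 12.4 CPM in MTZ+ 2dpi (log2 fold change 1.63, SE 0.36, adjusted p = 0.0437). The prolyl hydroxylase p4ha1a, which modifies collagen chains, had 14.6, 10.6 and 12.6 CPM in MTZ+ 4dpi, against 2.1, 2.43 and 4.63 CPM in MTZ+ 2dpi (log2 fold change 2.05, SE 0.35, adjusted p = 0.0116). With 1 library left out, p4ha1a passed in 4 of 6 fits, lxn in 3, napsa and lgals3b in 2 each, grnb in 1 and lama5 in 0. In these fits the log2 fold changes of lama5, grnb, napsa and p4ha1a ranged over 1.55 to 1.71, 1.27 to 1.41, 1.946 to 3.04 and 1.82 to 2.48.

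Cytoskeletal and membrane genes made up the rest of the named genes. The guanine nucleotide exchange factor arhgef1b (chromosome 16, 26140895 to 26232411) had 81.7, 99.01 and 90.8 CPM in MTZ+ 4dpi, against 35.5, 40.97 and 47.3 CPM in MTZ+ 2dpi (log2 fold change 1.13, SE 0.17, adjusted p = 0.00625). It passed in all 6 fits with a library left out, with log2 fold changes of 1.03 to 1.25, and it overlaps BX571738.1. The adducin add3a, a protein of the membrane skeleton, had 47.4, 49.98 and 36.6 CPM in MTZ+ 4dpi, against 21.3, 23.4 and 14.6 CPM in MTZ+ 2dpi (log2 fold change 1.17, SE 0.21, adjusted p = 0.0148). The keratin krt97 (chromosome 22, 11756040 to 11759106) had 43.6, 6.07 and 46.2 CPM in MTZ+ 4dpi, against 3.205, 1.51 and 1.84 CPM in MTZ+ 2dpi (log2 fold change 3.87, SE 0.68, adjusted p = 0.0148). Its replicate 2 at 4dpi was far below the others. The 11 epidermis markers, krt97 among them, summed to 109, 18.7 and 115 CPM in MTZ+ 4dpi, against 8.10, 14.2 and 19.7 CPM in MTZ+ 2dpi, and their part was not tested. At the same time, in MTZ- libraries krt97 reached 1198, 865 and 722 CPM at 4dpi, against 108, 138 and 119 CPM at 2dpi. The transmembrane protein gene tmem72 (chromosome 13, 30704361 to 30713236) had 189.8, 65.1 and 94.4 CPM in MTZ+ 4dpi, against 12.1, 12.3 and 17.2 CPM in MTZ+ 2dpi (log2 fold change 3.07, SE 0.69, adjusted p = 0.0477), and in MTZ- libraries 1493, 1483 and 1228 CPM at 4dpi, against 599, 542 and 587 CPM at 2dpi. Both krt97 and tmem72 thus stood well below unablated RPE in all MTZ+ libraries. The calcium-binding protein gene s100a1 had 10.9, 17.7 and 28.8 CPM in MTZ+ 4dpi, against 4.79, 1.25 and 2.28 CPM in MTZ+ 2dpi (log2 fold change 2.79, SE 0.62, adjusted p = 0.0455). Skeletal muscle actin acta1b had 51.2, 86.2 and 20.7 CPM in MTZ+ 4dpi, against 10.7, 16.2 and 14.8 CPM in MTZ+ 2dpi (log2 fold change 1.92, SE 0.43, adjusted p = 0.0455). The 9 muscle markers counted in the tables, acta1b among them, summed to 65.8, 93.7 and 26.3 CPM in MTZ+ 4dpi, against 19.6, 21.96 and 28.2 CPM in MTZ+ 2dpi, and their part was not tested. The RING finger gene rnf44 (log2 fold change 2.13, SE 0.34, adjusted p = 0.0116) also rose, as did the uncharacterized genes zgc:195173 and si:ch1073-396h14.1. Left-out libraries cost calls here too, with rnf44 passing in 5 of 6 fits, add3a and si:ch1073-396h14.1 in 4 each, krt97 in 2, and tmem72, s100a1, zgc:195173 and acta1b in 1 each.

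**Figure D3:**
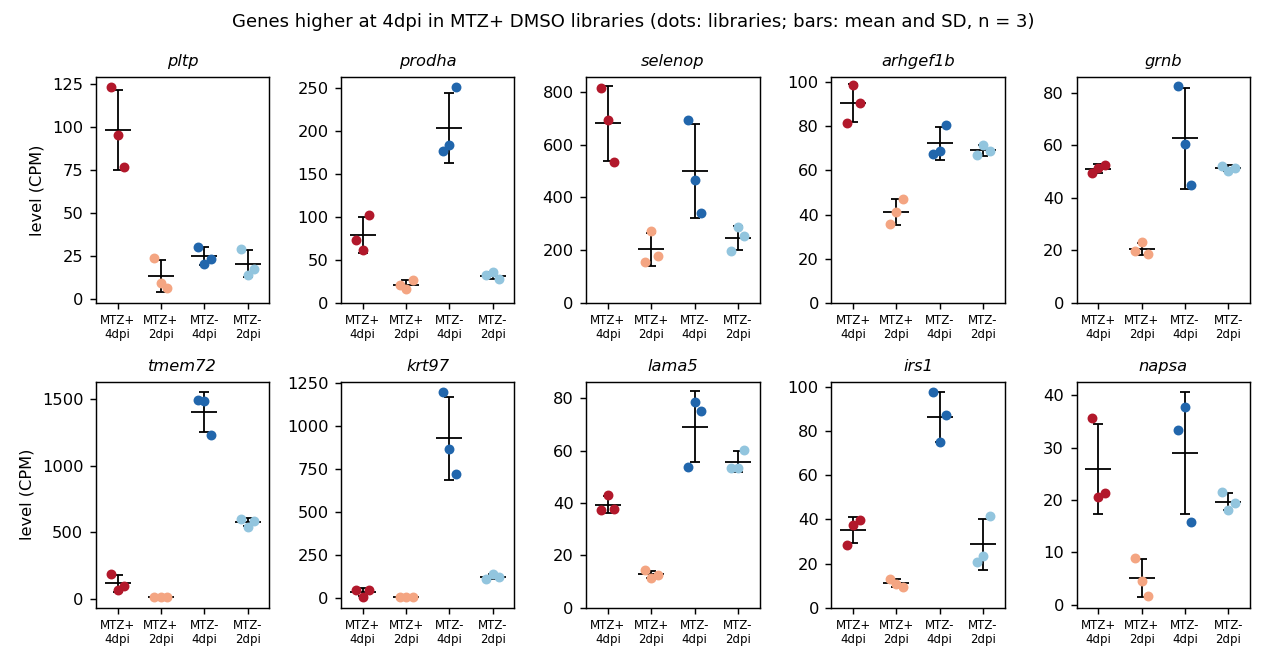
Levels (CPM) of 10 genes higher at 4dpi, with a dot for each library in MTZ+ 4dpi, MTZ+ 2dpi, MTZ- 4dpi and MTZ- 2dpi and bars for the mean and SD (n = 3). In each panel the 3 MTZ+ 4dpi dots lie above the 3 MTZ+ 2dpi dots, and for tmem72 and krt97 the MTZ- libraries lie far above both.

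Among the genes lower at 4dpi were genes of protein breakdown, splicing, tRNA modification and translation. The proteasome subunit psmc3 (chromosome 7, 38680034 to 38685337) had 102, 90.4 and 87.05 CPM in MTZ+ 4dpi, against 189.8, 214 and 160.0 CPM in MTZ+ 2dpi (log2 fold change -1.01, SE 0.16, adjusted p = 0.0103), and fell between the same ages in MTZ- larvae too, with 64.9, 64.01 and 72.5 CPM at 4dpi against 223, 174 and 197 CPM at 2dpi (log2 fold change -1.56, adjusted p = 5.73e-06). The spliceosome gene prpf31 (chromosome 16, 32082359 to 32090672) had 35.04, 54.2 and 60.01 CPM in MTZ+ 4dpi, against 97.3, 148 and 125 CPM in MTZ+ 2dpi (log2 fold change -1.31, SE 0.23, adjusted p = 0.0129), and 45.2, 47.02 and 35.4 CPM in MTZ- 4dpi against 36.9, 41.3 and 44.2 CPM in MTZ- 2dpi, so that the 4dpi level overlapped that of unablated RPE. Another spliceosome gene, sf3a3, had 61.6, 76.9 and 57.7 CPM in MTZ+ 4dpi, against 119, 148 and 125 CPM in MTZ+ 2dpi (log2 fold change -1.0002, SE 0.17, adjusted p = 0.0116). The tRNA-modifying enzymes pus1 and qtrt2 were lower as well. For pus1 the values were 9.23, 11.3 and 5.29 CPM in MTZ+ 4dpi, against 24.3, 31.3 and 27.2 CPM in MTZ+ 2dpi (log2 fold change -1.68, SE 0.29, adjusted p = 0.0129). For qtrt2 they were 17.3, 20.8 and 18.6 CPM in MTZ+ 4dpi, against 43.8, 47.7 and 48.3 CPM in MTZ+ 2dpi (log2 fold change -1.30, SE 0.24, adjusted p = 0.0156). The translation initiation subunit eif3jb had 49.9, 79.98 and 57.6 CPM in MTZ+ 4dpi, against 137, 139.8 and 160.2 CPM in MTZ+ 2dpi (log2 fold change -1.22, SE 0.22, adjusted p = 0.0154). No gene of this group overlapped between the times, as the rule for naming them required. With 1 library left out, prpf31 passed in 4 of 6 fits and psmc3, sf3a3, pus1, qtrt2 and eif3jb in 3 each. For psmc3 the adjusted p stayed at or below 0.0463 and the calls were lost because the log2 fold change came short of the limit of 1, while for prpf31 the highest adjusted p (0.0632) arose without MTZ+ 4dpi replicate 1. The gene sf3a3 lies just inside that limit.

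Ribosome assembly factors were also among the DEGs lower at 4dpi. The gene grwd1 (chromosome 16, 13860299 to 13870899) had 44.1, 51.3 and 60.4 CPM in MTZ+ 4dpi, against 124, 159.8 and 156 CPM in MTZ+ 2dpi (log2 fold change -1.50, SE 0.34, adjusted p = 0.0477), and ppan had 21.1, 32.3 and 31.5 CPM in MTZ+ 4dpi, against 66.7, 104 and 87.9 CPM in MTZ+ 2dpi (log2 fold change -1.60, SE 0.36, adjusted p = 0.0477). Both were still above the MTZ- libraries at 4dpi, which held 20.7, 16.3 and 17.9 CPM of grwd1 and 5.89, 8.001 and 9.697 CPM of ppan. Purine salvage was represented by hprt1, with 41.5, 79.7 and 68.4 CPM in MTZ+ 4dpi, against 151, 175 and 186 CPM in MTZ+ 2dpi (log2 fold change -1.43, SE 0.28, adjusted p = 0.0248). The co-chaperone bag3, an adaptor of Hsp70 in protein quality control, had 38.596, 71.6 and 60.9 CPM in MTZ+ 4dpi, against 143, 121 and 193 CPM in MTZ+ 2dpi (log2 fold change -1.42, SE 0.33, adjusted p = 0.0497). In MTZ- libraries bag3 had only 17.6, 16 and 16.7 CPM at 4dpi and 16.8, 11.5 and 8.698 CPM at 2dpi. All 4 genes were lost when MTZ+ 4dpi replicate 1 was left out, and grwd1 passed in 0 of 6 such fits, ppan and bag3 in 1 and hprt1 in 2.

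Lipid and mitochondrial transport genes and secreted signals were the remaining named genes lower at 4dpi. The carnitine transferase cpt1ab (chromosome 25, 23591990 to 23645806), which admits fatty acids to mitochondria, had 5.45, 7.25 and 10.5 CPM in MTZ+ 4dpi, against 15.4, 39.5 and 26.4 CPM in MTZ+ 2dpi (log2 fold change -1.81, SE 0.30, adjusted p = 0.0116). A similar step with age was measured in MTZ- larvae, 5.85, 2.96 and 4.48 CPM at 4dpi against 18.5, 19.5 and 15.102 CPM at 2dpi. The lipoprotein lipase inhibitor angptl4 (chromosome 2, 24536762 to 24542518) had 45.2, 126 and 60.2 CPM in MTZ+ 4dpi, against 306, 287 and 307 CPM in MTZ+ 2dpi (log2 fold change -1.96, SE 0.41, adjusted p = 0.0374), and MTZ- larvae had 21.8, 9.79 and 16.3 CPM at 4dpi, against 156, 325 and 75.4 CPM at 2dpi (log2 fold change -3.54, adjusted p = 4.73e-05). The mitochondrial carrier slc25a40 had 6.94, 9.95 and 8.67 CPM in MTZ+ 4dpi, against 28.3, 25.3 and 25.7 CPM in MTZ+ 2dpi (log2 fold change -1.63, SE 0.27, adjusted p = 0.0116). This gene and cbwd (log2 fold change -1.36, SE 0.24, adjusted p = 0.0124) were lower in every 4dpi library and each passed in 5 of 6 fits with a library left out, against 4 for cpt1ab and 1 for angptl4. The secreted cytokine receptor-like factor crlf1a (chromosome 2, 41876595 to 41920632), a partner of Clcf1 cytokines, had 7.93, 13.5 and 10.9 CPM in MTZ+ 4dpi, against 42.4, 98.5 and 31.4 CPM in MTZ+ 2dpi (log2 fold change -2.41, SE 0.51, adjusted p = 0.036) and passed in 3 of these fits. MTZ- libraries held 18.4, 25.6 and 17.8 CPM at 4dpi and 22.5, 21.98 and 25.2 CPM at 2dpi, between the MTZ+ times. The Wnt ligand wnt9a had 0, 0.0785 and 0 CPM in MTZ+ 4dpi, against 0.6999, 1.32 and 4.47 CPM in MTZ+ 2dpi (adjusted p = 0.035). The counts of 0 allow up to 0.135 and 0.117 CPM, and wnt9a, the DEG among 52 tested genes of the Wnt pathway, passed in 2 of the 6 fits. The zinc finger gene zmynd19 (log2 fold change -1.43, SE 0.33, adjusted p = 0.0477) passed in 1.

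**Figure D4:**
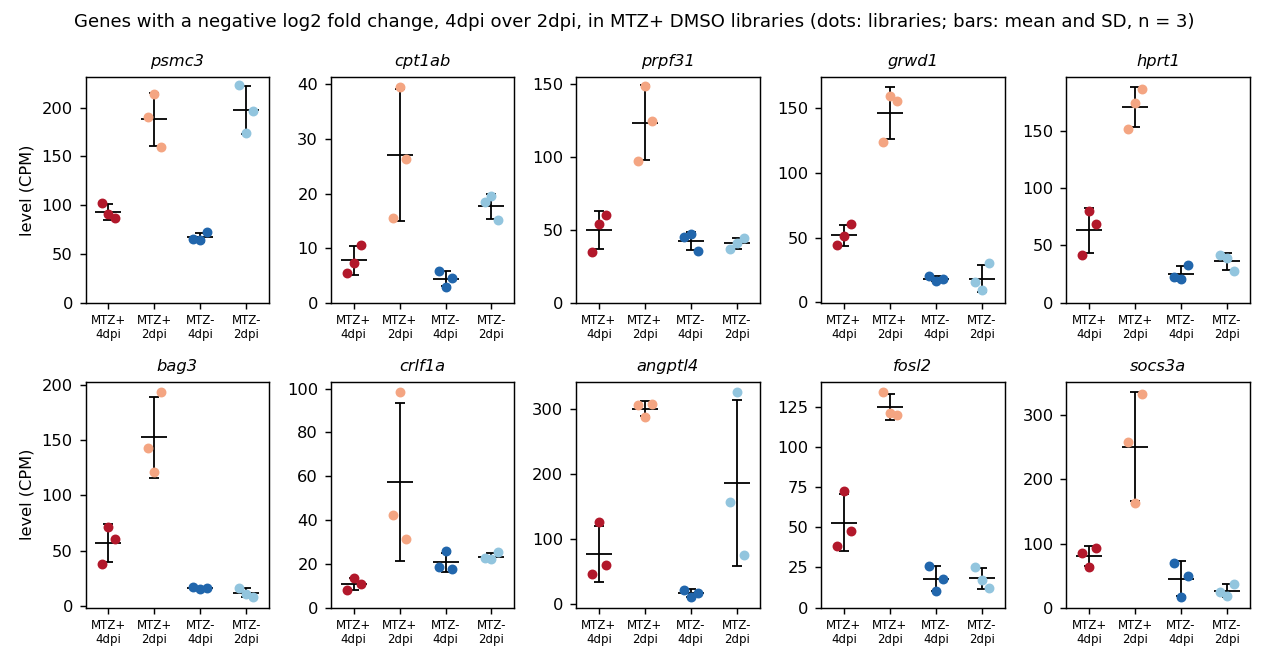
Levels (CPM) of 10 genes with a negative log2 fold change, 4dpi over 2dpi, with a dot for each library in MTZ+ 4dpi, MTZ+ 2dpi, MTZ- 4dpi and MTZ- 2dpi and bars for the mean and SD (n = 3). The 3 MTZ+ 4dpi dots lie below the 3 MTZ+ 2dpi dots in each panel, 8 of the genes are DEGs, and fosl2 and socs3a did not pass (adjusted p = 0.0795 and 0.0606).

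Genes of ribosome biogenesis, the assembly of ribosomal subunits in the nucleolus, had negative log2 fold changes with 1 exception. None of the 54 tested members was a DEG, but 53 were negative, 45 were lower in every MTZ+ 4dpi library than in every MTZ+ 2dpi library, and 36 reached an unadjusted p under 0.05, against 8.35% of all genes. Over all genes, 12.1% were lower without overlap. The median log2 fold change of the list was -0.98, against 0.04 for all genes, and leaving out 1 library gave medians of -1.12 to -0.88 and 28 to 37 members under 0.05. The summed level was 3336, 4606 and 3727 CPM in MTZ+ 4dpi, against 6424, 7306 and 8399 CPM in MTZ+ 2dpi, and 3736, 3145 and 2907 CPM in MTZ- 4dpi, against 1659, 1851 and 1742 CPM in MTZ- 2dpi. The time difference thus ran the other way in unablated larvae, with a median of 0.40. Nucleolin (ncl), an abundant nucleolar protein, had 154, 264 and 218 CPM in MTZ+ 4dpi, against 289, 443 and 551 CPM in MTZ+ 2dpi (log2 fold change -1.01, SE 0.30, adjusted p = 0.0995), and 320.4, 263 and 171 CPM in MTZ- 4dpi, against 94.1, 118 and 94.6 CPM in MTZ- 2dpi. The difference between these changes was -2.31 (SE 0.43, adjusted p = 0.009). The small-subunit factor tsr1 had 21.5, 47.4 and 31.4 CPM in MTZ+ 4dpi, against 74.6, 124 and 91.2 CPM in MTZ+ 2dpi (log2 fold change -1.53, SE 0.36, adjusted p = 0.0565), with a difference from MTZ- of -2.55 (SE 0.51, adjusted p = 0.0141). The box C/D particle proteins nop56 (log2 fold change -0.90, SE 0.23, adjusted p = 0.0642) and fbl (log2 fold change -1.0025, SE 0.30, adjusted p = 0.0923) and the pseudouridine synthase dkc1 (log2 fold change -1.28, SE 0.38, adjusted p = 0.0917) also lay lower without overlap. In all, 16 of the 54 genes passed the test of a difference from MTZ-, each with the more negative change in MTZ+, against 1.14% of all genes. The number was 10 when libraries of the same day were paired and 7 without MTZ+ 2dpi replicate 3 or without MTZ- 4dpi replicate 1, 10 without MTZ+ 4dpi replicate 1, and 11 to 16 without any other library. Outside this list, and chosen after their values were seen, the DEGs mak16 and rpl7l1 are also known ribosome assembly factors.

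Immediate early transcription factors, which respond to injury within minutes, had mostly negative log2 fold changes. None of the 34 tested members was a DEG. Of these, 30 had a negative log2 fold change, 15 were lower without overlap (12.1% of all genes were) and 11 reached an unadjusted p under 0.05 (8.35% of all genes), and the median was -1.08. Without MTZ+ 2dpi replicate 3 the median was -0.75 and 7 members were under 0.05. The sum over the list was 3458, 3845 and 3257 CPM in MTZ+ 4dpi, against 6899, 5961 and 9957 CPM in MTZ+ 2dpi. The AP-1 subunit fosl2 had 38.2, 72.6 and 48 CPM in MTZ+ 4dpi, against 134, 121 and 119.8 CPM in MTZ+ 2dpi (log2 fold change -1.24, SE 0.34, adjusted p = 0.0795). For junba, another AP-1 subunit, the values were 90.6, 105 and 99.7 CPM in MTZ+ 4dpi, against 236, 225 and 460.5 CPM in MTZ+ 2dpi (log2 fold change -1.64, SE 0.56, adjusted p = 0.145). The subunit fosab had 292, 354 and 262 CPM in MTZ+ 4dpi, against 974, 845 and 1448 CPM in MTZ+ 2dpi (log2 fold change -1.85, SE 0.68, adjusted p = 0.177), and overlaps si:ch211-153j24.3. These subunits did not overlap between the times, and neither did mycb (log2 fold change -1.05, SE 0.31, adjusted p = 0.0944), ier2a (log2 fold change -1.48, SE 0.43, adjusted p = 0.0867) or the MAP kinase phosphatase dusp2 (log2 fold change -1.40, SE 0.35, adjusted p = 0.0645). In unablated libraries the level depended on the gene, for fosl2 25.8, 10.4 and 17.7 CPM in MTZ- 4dpi and 25.4, 16.9 and 12.3 CPM in MTZ- 2dpi, below every MTZ+ library, and for dusp2 1696, 955 and 1903 CPM in MTZ- 4dpi and 1041, 627 and 933 CPM in MTZ- 2dpi, above every MTZ+ library.

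Interleukin 11, leptin and the Jak/Stat3 pathway, which relays cytokines of the gp130 family, had 22 tested members and no DEG. A negative log2 fold change was found for 16, 9 were lower without overlap (12.1% of all genes), and 7 reached an unadjusted p under 0.05 (8.35% of all genes) against 1 with a positive change. The median was -0.67, with -0.69 to -0.55 when 1 library was left out. The paper lists il11a, il11b, lepb, clcf1 and lifrb as higher in the same MTZ+ 2dpi libraries than in MTZ- 2dpi. For these genes the list counts are no separate support. The ligand il11b had 3.42, 17.2 and 4.67 CPM in MTZ+ 4dpi, against 55.6, 75.7 and 74.4 CPM in MTZ+ 2dpi (log2 fold change -3.02, SE 0.95, adjusted p = 0.138), and 0 counts in all 6 MTZ- libraries, where a count of 0 allows up to 0.0784 to 0.126 CPM. The receptor subunit il6st had 64.9, 56.8 and 61.9 CPM in MTZ+ 4dpi, against 93.6, 72.3 and 135 CPM in MTZ+ 2dpi (log2 fold change -0.71, SE 0.26, adjusted p = 0.177). The feedback inhibitor socs3a, a Stat3 target, had 85.9, 63.3 and 92.8 CPM in MTZ+ 4dpi, against 258, 164 and 333 CPM in MTZ+ 2dpi (log2 fold change -1.64, SE 0.40, adjusted p = 0.0606), and the kinase pim1 had 186, 192 and 172 CPM in MTZ+ 4dpi, against 312, 307 and 388 CPM in MTZ+ 2dpi (log2 fold change -0.87, SE 0.22, adjusted p = 0.0645). Ligand, receptor and both targets were lower in each 4dpi library. The change differed from that in MTZ- for socs3a (difference -2.41, SE 0.56, adjusted p = 0.0249) and pim1 (difference -1.26, SE 0.31, adjusted p = 0.033). These calls depended on single libraries, since socs3a passed in 7 and pim1 in 4 of 12 fits that left out 1 DMSO library, and neither passed without MTZ+ 4dpi replicate 2, MTZ+ 2dpi replicate 3, MTZ- 4dpi replicate 1 or MTZ- 2dpi replicate 2. With libraries of the same day paired, the adjusted p was 0.0434 for socs3a and 0.0573 for pim1. Leptin b (lepb) overlapped, with 1.67, 30.6 and 2.22 CPM in MTZ+ 4dpi and 21.7, 27.8 and 16.6 CPM in MTZ+ 2dpi (log2 fold change -0.93, SE 1.36, adjusted p = 0.813).

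Inflammatory genes were mixed, and their lists held no DEG. Of 26 tested chemokine and cytokine genes, 17 had a positive and 9 a negative log2 fold change (median 0.22). The counts were 8 and 7 of 15 immune genes named by the paper at 2dpi (median 0.20). They were 10 and 9 of 19 prostaglandin and leukotriene genes (median 0.05). Among 23 metalloproteinase, plasminogen system and inhibitor genes they were 10 and 13 (median -0.08). At an unadjusted p under 0.05 these lists had, in this order, 1 higher and 2 lower, 3 and 2, 3 and 5, and 2 and 1. Over all genes the shares were 8.04% and 8.35%. With 1 library left out, the median of the prostaglandin and leukotriene list was -0.72 to 0.01. Single genes below do not stand for these lists. The cyclooxygenase ptgs2a, which starts prostaglandin synthesis, had 5.85, 48.7 and 4.12 CPM in MTZ+ 4dpi, against 259, 324 and 263 CPM in MTZ+ 2dpi (log2 fold change -3.84, SE 1.45, adjusted p = 0.195), while ptgdsb.2, a prostaglandin D synthase gene that overlaps zfx, had 478, 715 and 1017 CPM in MTZ+ 4dpi, against 107, 112 and 235 CPM in MTZ+ 2dpi (log2 fold change 2.28, SE 0.58, adjusted p = 0.0653). Neither passed, and neither overlapped. The chemokine gene cxcl18b had 209, 375 and 254 CPM in MTZ+ 4dpi, against 764, 662 and 987 CPM in MTZ+ 2dpi (log2 fold change -1.53, SE 0.70, adjusted p = 0.285), and cxcl18a.1, which overlaps rassf4a, had 2.93, 3.06 and 2.18 CPM in MTZ+ 4dpi, against 13.3, 11.97 and 8.902 CPM in MTZ+ 2dpi (log2 fold change -2.06, SE 0.90, adjusted p = 0.268). The neutrophil enzyme mpx had 0, 1.68 and 0.311 CPM in MTZ+ 4dpi, against 8.21, 9.44 and 8.14 CPM in MTZ+ 2dpi (log2 fold change -3.67, SE 1.31, adjusted p = 0.177), all low levels. The pan-leukocyte gene ptprc had 0.766, 0.0262 and 3.46 CPM in MTZ+ 4dpi and 0.405, 0 and 0 CPM in MTZ+ 2dpi. The 16 leukocyte markers counted in the tables summed to 17.5, 12.3 and 116 CPM in MTZ+ 4dpi, against 24.2, 153 and 14.9 CPM in MTZ+ 2dpi, with 1 high library at each time. The metalloprotease mmp13b (1.71, 2.49 and 0 CPM in MTZ+ 4dpi, against 24.2, 5.03 and 34.2 CPM in MTZ+ 2dpi) did not pass (adjusted p = 0.206). The secreted phosphoprotein gene scpp8 ranged widely, with 36.7, 9.58 and 0.0389 CPM in MTZ+ 4dpi and 146, 20.3 and 9.18 CPM in MTZ+ 2dpi (log2 fold change -1.93, SE 1.63, adjusted p = 0.625).

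Chaperones included 1 DEG, bag3, among 40 tested genes. Of the 40, 37 had a negative log2 fold change, 13 were lower without overlap (12.1% of all genes) and 16 reached an unadjusted p under 0.05 (8.35% of all genes), with a median of -0.58. This rested in part on MTZ+ 2dpi replicate 3, without which the median was -0.07 and 6 members were under 0.05, and 6 were under 0.05 without MTZ+ 4dpi replicate 1. Replicate 3 held most of the heat shock gene hsp70.2, which had 249, 255 and 152 CPM in MTZ+ 4dpi, against 252, 199 and 2340 CPM in MTZ+ 2dpi, and overlaps atp2a1. The log2 fold change of hsp70.2 was -2.09 with all libraries and -0.04 without that one. The chaperonin subunit cct7 did not depend on it, with 167, 265 and 249.6 CPM in MTZ+ 4dpi, against 342, 415 and 424 CPM in MTZ+ 2dpi (log2 fold change -0.79, SE 0.24, adjusted p = 0.101), and mitochondrial hspd1 had 45.9, 88.4 and 66.7 CPM in MTZ+ 4dpi, against 126, 138 and 185 CPM in MTZ+ 2dpi (log2 fold change -1.16, SE 0.51, adjusted p = 0.254).

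No gene of the RPE marker, visual cycle or melanin lists passed the test, and most had small positive log2 fold changes. All 9 RPE markers had a positive log2 fold change (median 0.53, with 0.23 to 0.68 when 1 library was left out), as did 14 of 16 visual cycle genes (median 0.38) and 16 of 22 melanin genes (median 0.32). Each of the 9 markers is also a member of the visual cycle or the melanin list, so the marker counts repeat genes of those lists. Without MTZ+ 4dpi replicate 1 the medians of the visual cycle and melanin lists were 0.083 and 0.044, and with any other library left out they were 0.22 to 0.53 for both lists. Of these genes, 1, 2 and 2 of the positive ones in the visual cycle, the melanin list and the markers reached an unadjusted p under 0.05, against 8.04% of all genes. Of the negative ones 0, 2 and 0 did, against 8.35% of all genes. In the melanin list 1 gene was higher and 3 were lower without overlap, against 10.2% and 12.1% of all genes. The retinoid isomerase rpe65a (chromosome 2, 1428696 to 1443692), whose promoter drives the transgene, had 11475, 5132 and 7225 CPM in MTZ+ 4dpi, against 3704, 1932 and 5104 CPM in MTZ+ 2dpi (log2 fold change 1.15, SE 0.45, adjusted p = 0.203). The lowest 4dpi library was just above the highest 2dpi one, and MTZ- libraries held 24444, 23135 and 22314 CPM at 4dpi and 16388, 12749 and 18158 CPM at 2dpi, above all MTZ+ libraries. For the melanin enzyme tyrp1b the times overlapped, with 17083, 9328 and 9106 CPM in MTZ+ 4dpi and 8641, 6853 and 11510 CPM in MTZ+ 2dpi (log2 fold change 0.40, SE 0.38, adjusted p = 0.679). Among 29 transcription factors of the RPE and eye field, 24 had a positive change (median 0.33) and 9 were higher without overlap, against 10.2% of all genes. At an unadjusted p under 0.05 they had 3 higher and 1 lower, against 8.04% and 8.35% of all genes. In MTZ- larvae the median change of this list was -0.43, against -0.07 for all genes, and the genes named next do not stand for it. The eye field factor lhx2b had 9.37, 17.8 and 20.8 CPM in MTZ+ 4dpi, against 6.56, 3.58 and 8.06 CPM in MTZ+ 2dpi (log2 fold change 1.40, SE 0.36, adjusted p = 0.0653), and sox10, known as a pigment lineage factor of the neural crest, had 18.7, 24.4 and 28.98 CPM in MTZ+ 4dpi, against 7.699, 9.24 and 11.6 CPM in MTZ+ 2dpi (log2 fold change 1.34, SE 0.39, adjusted p = 0.0876). Both were higher still in MTZ- libraries, lhx2b with 44.6, 40.4 and 50.5 CPM at 4dpi against 26.7, 21.1 and 20.9 CPM at 2dpi and sox10 with 93.7, 89.1 and 102 CPM at 4dpi against 46.1, 49.3 and 73.7 CPM at 2dpi.

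Matrix genes had 1 DEG, lama5, among 51 tested. Of these, 35 had a positive log2 fold change, 11 were higher without overlap (10.2% of all genes) and 9 against 1 reached an unadjusted p under 0.05 (8.04% and 8.35% of all genes), with a median of 0.77 (0.57 to 1.11 when 1 library was left out). The collagen col15a1b, of basement membrane zones, had 96.9, 150.0 and 145 CPM in MTZ+ 4dpi, against 37.9, 43.8 and 53.5 CPM in MTZ+ 2dpi (log2 fold change 1.53, SE 0.44, adjusted p = 0.0867), while MTZ- libraries held 6.903, 10.4 and 6.13 CPM at 4dpi and 6.25, 9.93 and 19.5 CPM at 2dpi. The collagen col18a1a had 214, 166 and 212 CPM in MTZ+ 4dpi, against 105, 90.1 and 128 CPM in MTZ+ 2dpi (log2 fold change 0.88, SE 0.34, adjusted p = 0.197). Both collagens were higher in each 4dpi library. The matricellular gene ccn1, a target of Yap, ran the other way, with 54.9, 119 and 101 CPM in MTZ+ 4dpi, against 339, 258 and 613 CPM in MTZ+ 2dpi (log2 fold change -2.14, SE 0.68, adjusted p = 0.121). The 11 mesenchyme markers summed to 45.9, 78.4 and 45.7 CPM in MTZ+ 4dpi, against 30.3, 27.5 and 23.0 CPM in MTZ+ 2dpi, and their part was not tested. Most of the 4dpi sum was 1 gene, pdgfrb, with 34.3, 57.5 and 32.2 CPM in MTZ+ 4dpi, against 18.9, 19.1 and 9.86 CPM in MTZ+ 2dpi.

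Notch pathway genes, which hold neighbouring cells in different states, included no DEG among 41 tested. Of these, 32 had a positive log2 fold change, 11 were higher without overlap (10.2% of all genes) and 6 against 1 reached an unadjusted p under 0.05 (8.04% and 8.35% of all genes), with a median of 0.85 (0.66 to 1.04 when 1 library was left out). The receptor notch3 had 34.8, 33.8 and 26.1 CPM in MTZ+ 4dpi, against 7.99, 20.7 and 10.9 CPM in MTZ+ 2dpi (log2 fold change 1.26, SE 0.50, adjusted p = 0.208). The glycosyltransferase lfng, which tunes Notch receptors, had 134, 125 and 121 CPM in MTZ+ 4dpi, against 65.5, 72.1 and 46.9 CPM in MTZ+ 2dpi (log2 fold change 1.04, SE 0.35, adjusted p = 0.139). The values ran the other way with age in MTZ- larvae, for notch3 with 3.83, 3.398 and 4.48 CPM at 4dpi against 10.1, 17.2 and 8.05 CPM at 2dpi and for lfng with 38.8, 12.9 and 24.2 CPM at 4dpi against 67.5, 78.4 and 52.98 CPM at 2dpi, and the 2 changes differed for notch3 (difference 2.85, SE 0.72, adjusted p = 0.0366) and lfng (difference 2.43, SE 0.50, adjusted p = 0.0149). In all, 6 of the 41 genes passed this test, each with the more positive change in MTZ+, against 1.49% of all genes. With libraries of the same day paired, 5 did. Only 1 did without MTZ+ 4dpi replicate 2, MTZ+ 2dpi replicate 3, MTZ- 4dpi replicate 2 or MTZ- 2dpi replicate 2, and 2 to 8 did without any other library. The call for lfng held in all 12 of these fits and that for notch3 in 2. The Müller glia sum given above was also higher at 4dpi in MTZ+ libraries. The part of Müller glia was not tested. In MTZ- libraries glula made up most of this sum, and the median log2 fold change of its 10 members was -0.12. Among its members, the water channel aqp1a.1 had 673, 645 and 550.2 CPM in MTZ+ 4dpi, against 78.7, 126 and 76.5 CPM in MTZ+ 2dpi (log2 fold change 2.73, SE 0.82, adjusted p = 0.102), the glutamate transporter slc1a2b had 488, 893 and 686 CPM in MTZ+ 4dpi, against 241, 379 and 271 CPM in MTZ+ 2dpi (log2 fold change 1.21, SE 0.45, adjusted p = 0.173), and glutamine synthetase glula had 9530, 9621 and 6861 CPM in MTZ+ 4dpi, against 5508, 6081 and 4422 CPM in MTZ+ 2dpi (log2 fold change 0.70, SE 0.39, adjusted p = 0.384). All 3 were higher in each 4dpi library without passing the test. In MTZ- libraries aqp1a.1 was lower, with 41.4, 37.2 and 19.6 CPM at 4dpi and 17.8, 21.1 and 12.2 CPM at 2dpi, and so was slc1a2b, with 37.2, 23.6 and 31.6 CPM at 4dpi and 28.7, 56.98 and 53.5 CPM at 2dpi. In contrast, glula had 12440, 9837 and 10897 CPM in MTZ- 4dpi and 6050, 5212 and 10236 CPM in MTZ- 2dpi, a range that overlapped both MTZ+ times.

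No cell cycle gene passed the test between the times in MTZ+ libraries. Of 54 tested genes of G2/M and mitosis, none was a DEG and 1 reached an unadjusted p under 0.05 (median 0.49, with 0.13 to 0.90 when 1 library was left out), and of 42 genes of S phase, 1 did (median -0.07). Over all genes 16.4% reached an unadjusted p under 0.05. Only 0.475% of all genes were DEGs, so lists of this size would hold few or none at that share. The proliferation marker mki67 had 7.66, 4.74 and 7.195 CPM in MTZ+ 4dpi and 4.57, 18.3 and 2.75 CPM in MTZ+ 2dpi (log2 fold change -0.39, SE 0.99, adjusted p = 0.905), and the mitotic kinase cdk1 had 17.7, 9.82 and 20.5 CPM in MTZ+ 4dpi and 7.11, 19.8 and 0.758 CPM in MTZ+ 2dpi (log2 fold change 0.79, SE 1.15, adjusted p = 0.809). Replicate 2 held the most of mki67 at 2dpi and the least at 4dpi. In unablated libraries the levels were low at 4dpi, with 0, 0 and 0.1102 CPM of mki67 in MTZ- 4dpi, against 9.79, 71.9 and 10.3 CPM in MTZ- 2dpi, and the medians of the fitted changes were -5.04 for G2/M and -1.92 for S phase. With the 11 G2/M genes at 0 in all 3 MTZ- 4dpi libraries set to the bound that 3 counts in the shallowest of those libraries allow, the G2/M median was -4.94, and with 3 such genes of S phase it was still -1.92. The change of 15 of the 54 G2/M genes and 4 of the 42 S phase genes differed between MTZ+ and MTZ-, each with the more positive change in MTZ+, against 1.49% of all genes. With libraries of the same day paired, 5 and 3 did. The same MTZ- 2dpi replicate 2 that led in mki67 also held the most lens markers, 41.9 CPM against 4.95 and 3.70 CPM in the other two, and the part of lens cells was not tested. Photoreceptor markers summed to 1034, 5738 and 4844 CPM in MTZ- 2dpi replicates 1 to 3. Of these, rho, crx, arr3b, opn1sw1 and opn1sw2 were highest in replicate 2, and arr3a, opn1mw1 and opn1mw2 in replicate 3. Among markers of bipolar neurons, vsx1, gnao1b and gnb3a were highest in replicate 2, and trpm1a and grm6b in replicate 1. Haemoglobin genes were counted in replicate 2 alone. The part of these cells was not tested either. Without MTZ- 2dpi replicate 2, 4 G2/M genes and 0 S phase genes differed between MTZ+ and MTZ-. Leaving out other libraries lowered these counts too. They were 5 and 1 without MTZ- 4dpi replicate 1, and 7 and 0 without MTZ+ 2dpi replicate 3. Without MTZ+ 4dpi replicate 1 they were 8 and 0, and without MTZ+ 2dpi replicate 1 they were 11 and 0. Without MTZ+ 2dpi replicate 2 they were 15 and 3. Calls over all genes fell in these fits as well, from 282 with the more positive change in MTZ+. They were 111 without MTZ- 2dpi replicate 2, 106 without MTZ- 4dpi replicate 1 and 127 without MTZ+ 2dpi replicate 3. Leaving out MTZ+ 4dpi replicate 1, MTZ+ 2dpi replicate 1 or MTZ+ 2dpi replicate 2 gave 159, 194 and 187.

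**Figure D5:**
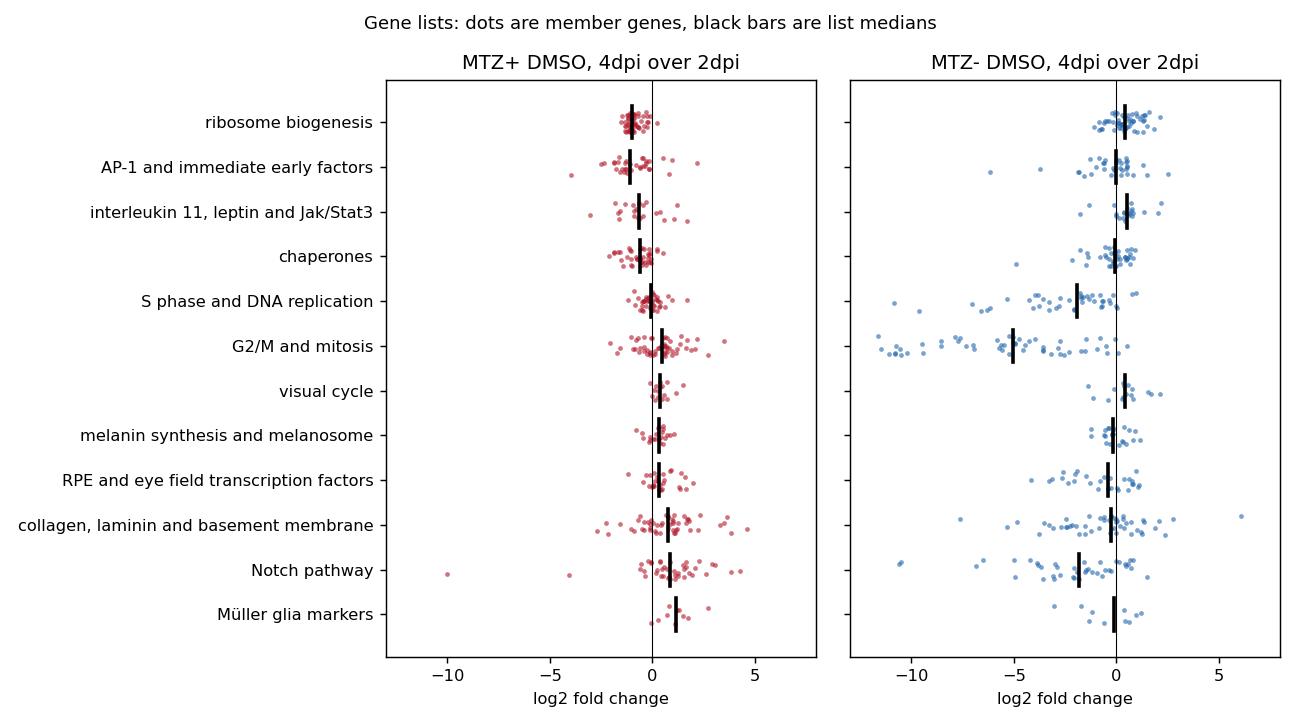
Log2 fold change of each tested member (dots) of 12 gene lists, 4dpi over 2dpi, in MTZ+ DMSO (left, red) and MTZ- DMSO (right, blue), with list medians as black bars. In MTZ+ the bar for ribosome biogenesis lies at -0.98 and in MTZ- at 0.40, while for G2/M and mitosis the bars lie at 0.49 and -5.04.

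Other metabolic genes did not pass. Over all genes, 8.04% were higher and 8.35% lower at an unadjusted p under 0.05, the shares to set beside the list counts below. The glycolytic enzyme gapdh had 102, 120.3 and 71.4 CPM in MTZ+ 4dpi, against 4.75, 9.86 and 18.04 CPM in MTZ+ 2dpi (log2 fold change 3.17, SE 0.81, adjusted p = 0.066), yet 42 tested glycolysis genes had 6 higher and 6 lower at an unadjusted p under 0.05 and a median of 0.15. The metallothionein mt2, which binds zinc and copper, had 288, 391 and 235 CPM in MTZ+ 4dpi, against 93.1, 99.6 and 44.5 CPM in MTZ+ 2dpi (log2 fold change 1.946, SE 0.56, adjusted p = 0.0902), and the thioredoxin reductase txnrd3 had 104, 199 and 213 CPM in MTZ+ 4dpi, against 344, 334 and 440.4 CPM in MTZ+ 2dpi (log2 fold change -1.12, SE 0.28, adjusted p = 0.0642). The groups overlapped for none of these 3 genes. For 26 cholesterol synthesis genes 6 against 1 were under 0.05 (median 0.21), but that median was -0.06 without MTZ+ 4dpi replicate 2. The insulin-like growth factor axis, with irs1 as its DEG, had a median of 0.58 over 23 genes, and of 0.28 without MTZ+ 4dpi replicate 2. Of the remaining lists, 35 genes of RPE water and ion transport had 4 higher and 0 lower under 0.05 (median 0.32), 46 of phagocytosis and the lysosome, grnb included, had 4 and 2 (median 0.23), and 46 of synaptic release had 2 and 0 (median 0.63). Keratin and adhesion genes of wound epithelia, krt97 included, had 4 and 0 of 28 (median 0.34), but the median was -0.08 without MTZ+ 4dpi replicate 1 and -0.05 without MTZ+ 2dpi replicate 2. The Atf4 stress response had 5 and 2 of 36 (median 0.17). Without MTZ+ 4dpi replicate 1 the medians of the glycolysis, phagocytosis and Atf4 lists were 0.026, 0.034 and 0.045. The p53 list with sesn1 (median -0.05) and the oxidative defence and metal list with selenop (median near 0) had as many genes under 0.05 in either direction. Photoreceptor markers summed to 1347, 458 and 600 CPM in MTZ+ 4dpi, against 3134, 5516 and 84.1 CPM in MTZ+ 2dpi, and overlapped between the times.

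To ask whether the time difference in ablated RPE was that of unablated larvae growing from 7 to 9 dpf, the 2 changes were compared directly. The change differed for 498 genes (2.63%), 282 with the more positive change in MTZ+ and 216 with the more negative. Within MTZ- alone, 1325 genes were DEGs (7.0%). A fit that paired libraries of the same collection day within each time gave 331 differing genes, and leaving out 1 library gave 179 to 486. The lowest counts were 179 without MTZ- 4dpi replicate 1, 210 and 270 without MTZ- 2dpi replicates 2 and 1, and 213 without MTZ+ 2dpi replicate 3. Without 1 MTZ+ 4dpi library they were 292, 322 and 303. The DEGs pltp (difference 2.63, SE 0.62, adjusted p = 0.0258), rnf44, add3a, cox7a1 and acta1b were among the first set, and qtrt2 (difference -1.59, SE 0.33, adjusted p = 0.0169), prpf31 and bag3 among the second. In 12 fits that each left out 1 DMSO library, qtrt2 passed in 12, acta1b in 11, rnf44 in 10, add3a in 7, pltp in 6, prpf31 and bag3 in 5 and cox7a1 in 4. Pairing by day lost add3a, acta1b, prpf31 and bag3 (adjusted p = 0.0799, 0.0567, 0.0723 and 0.0637). For prodha, irs1, sesn1, psmc3 and cpt1ab the difference did not pass (adjusted p = 0.3, 0.976, 0.999, 0.183 and 0.864), and each changed the same way in MTZ- (adjusted p = 9e-06, 0.00186, 0.00285, 5.73e-06 and 0.000303). Some genes with the smallest adjusted p for the difference are described next, and they do not stand for all 498. The actin-regulating abracl had 97.1, 77.7 and 84.98 CPM in MTZ+ 4dpi, against 115, 108 and 98.9 CPM in MTZ+ 2dpi, and 5.14, 5.33 and 4.92 CPM in MTZ- 4dpi, against 67.7, 36.7 and 40.8 CPM in MTZ- 2dpi (difference 2.93, SE 0.35, adjusted p = 0.000855). The threonine dehydrogenase tdh, which overlaps BX510941.2, had 220.4, 139 and 134 CPM in MTZ+ 4dpi, against 186, 219.7 and 218 CPM in MTZ+ 2dpi, and 295, 339 and 499 CPM in MTZ- 4dpi, against 75.99, 78.5 and 76.6 CPM in MTZ- 2dpi (difference -2.63, SE 0.36, adjusted p = 0.00189). For abracl and tdh the MTZ- libraries of the 2 ages lay further apart than the MTZ+ libraries of the 2 times. The translation helicase eif4a2 ran opposite ways, with 25.1, 31.4 and 37.1 CPM in MTZ+ 4dpi, against 50.4, 66.7 and 61.6 CPM in MTZ+ 2dpi, and 93.3, 98.1 and 76.4 CPM in MTZ- 4dpi, against 20.1, 33.04 and 28.97 CPM in MTZ- 2dpi (difference -2.64, SE 0.38, adjusted p = 0.00272). The formin fmnl1a, an actin regulator, was counted at 2.75, 1.91 and 2.92 CPM in MTZ+ 4dpi, against 0, 0 and 0.0399 CPM in MTZ+ 2dpi, and 13.6, 15.8 and 17.2 CPM in MTZ- 4dpi, against 10.1, 7.87 and 18.7 CPM in MTZ- 2dpi. It had the smallest adjusted p of all genes between the MTZ+ times (0.000444) but stayed under 1 TPM there. The 2 counts of 0 allow up to 0.111 and 0.0986 CPM.

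Under rapamycin, an inhibitor of mTOR, the same 2 times gave 3 DEGs (0.0158%), all higher at 4dpi, with 1567 genes (8.27%) at an unadjusted p under 0.05. The change differed between DMSO and rapamycin for 1 gene (0.00528%), with 1790 genes (9.45%) at an unadjusted p under 0.05, and DESeq2 gave 119. That gene was arhgef1b, with 33.7, 36.5 and 36.1 CPM in MTZ+ rapamycin 4dpi, against 52.4, 46.5 and 42.2 CPM in MTZ+ rapamycin 2dpi (difference 1.54, SE 0.23, adjusted p = 0.0184). Its rapamycin libraries were lower at 4dpi than at 2dpi, the reverse of DMSO. The call did not hold without MTZ+ 4dpi replicate 1 or 2 (adjusted p = 0.0564 and 0.0705), without MTZ+ 2dpi replicate 2 (adjusted p = 0.111), or without rapamycin 4dpi replicate 2 or 3 (adjusted p = 0.0854 and 0.0673) or 2dpi replicate 1 (adjusted p = 0.0518), and the difference stayed between 1.39 and 1.62. For selenop the rapamycin libraries held 46.3, 13.3 and 44.9 CPM at 4dpi and 18.4, 27.7 and 11.9 CPM at 2dpi, below all MTZ+ DMSO libraries, and the changes with time did not differ by the test (adjusted p = 0.615).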

How the data were processed

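Sorted cells were processed by the authors with an ultra-low input SMART-Seq kit and Nextera XT, sequenced as 75 bp paired reads, and aligned and counted against GRCz11 in CLC Genomics Workbench (version not given in the sources used here). The deposited tables give, per library, total counts and TPM, the latter normalized by the authors for gene length and depth. Columns with the authors' own CPM, RPKM, fold changes and p-values for pairs of groups were not used. The tables of both times were joined by gene name. Counts were tested in edgeR 4.0.16 (R 4.3.3) with TMM scaling, filterByExpr (minimum count 10) by group, a robust quasi-likelihood fit over all 24 libraries in 8 groups, and Benjamini-Hochberg adjustment over 18939 genes. CPM were TMM-scaled, and TPM served only the minimum of 1. DESeq2 1.42.0, its size factors, no count filter, fewer libraries, a replicate block, a CPM minimum, and leaving out each library were tried.

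Genes were named by rule. Per direction, these were the 10 DEGs of smallest adjusted p and the 10 of largest change with at least 10 CPM, both without overlap between the times. Members of the lists, scpp8, cxcl18a.1, lepb and selenop could also be named, as could the 10 genes per direction with the smallest adjusted p in each test of a difference. Some genes that this rule names are not reported here. The comparison, the members and the lists were chosen with earlier results of these data known. Lists such as chaperones and immediate early factors also hold genes that the paper reported from the same MTZ+ DMSO libraries. For such genes the list counts are no separate support. The labels mark pools of larvae as replicates, and 3 against 3 cannot go below an exact p of 0.10, so single values were not tested. Same-numbered MTZ+ and MTZ- libraries of 1 time share the date in the raw sample name, and their deviations correlated at 0.01 to 0.23. Across times the number marks no shared day. Gene overlap was read from the deposited coordinates, and whether counting used strand is not given in the sources used here. Intervals from a count of 0 (3 counts) cover counting error only.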

Additional observations from a re-analysis of the deposited data

Results flagged for a closer look

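Each result here was singled out because a change with time differed between treatments in a direct test of the difference. Between MTZ+ DMSO and MTZ- DMSO this held for 498 genes. The 5 with the smallest adjusted p and a more positive change in MTZ+ were abracl (difference of log2 fold changes 2.93, adjusted p = 0.000855), psmd5 (2.81, adjusted p = 0.00189), fmnl1a (6.92, adjusted p = 0.00272), wee1 (9.62, adjusted p = 0.00272) and sec14l8 (10.09, adjusted p = 0.00277). The proteasome assembly gene psmd5 had 14.9, 14.9 and 22.5 CPM in MTZ+ 4dpi, against 17.98, 19.1 and 18.3 CPM in MTZ+ 2dpi, and 6.903, 11.98 and 4.89 CPM in MTZ- 4dpi, against 61.5, 51.9 and 63.7 CPM in MTZ- 2dpi. The cell cycle kinase wee1 and the gene sec14l8 were at 0 in all 3 MTZ- 4dpi libraries. Counts of fmnl1a were at or near 0 in the MTZ+ 2dpi libraries. The fitted differences of these genes depend on how zeros are handled and are no bounds. In MTZ+ the kinase wee1 had 15.3, 23.7 and 21.5 CPM at 4dpi, against 24.6, 23.9 and 45.3 CPM at 2dpi. The 5 with a more negative change in MTZ+ were tdh (-2.63, adjusted p = 0.00189), eif4a2 (-2.64, adjusted p = 0.00272), nob1 (-2.07, adjusted p = 0.00272), pinx1 (-2.33, adjusted p = 0.00272) and dohh (-2.22, adjusted p = 0.00272). The small-subunit endonuclease nob1, which overlaps wdr59, had 44.9, 46.3 and 59.4 CPM in MTZ+ 4dpi, against 70.9, 66.5 and 86.4 CPM in MTZ+ 2dpi, and 70.12, 58.6 and 44.2 CPM in MTZ- 4dpi, against 19.3, 19.1 and 23.1 CPM in MTZ- 2dpi.

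Between MTZ+ DMSO and MTZ+ rapamycin the change differed for 1 gene, arhgef1b (difference 1.54, adjusted p = 0.0184).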

How the results depend on the processing

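The count of 90 DEGs became 626 with DESeq2, 168 with the 12 DMSO libraries alone and 0 with the 6 compared libraries alone, where 4 residual degrees of freedom remain. It was 80 with DESeq2 size factors, 79 without a count filter and 93 with a CPM minimum. Leaving out 1 library gave 9 to 264, the latter from fits without an MTZ+ rapamycin library, an alternative chosen after seeing the data. A replicate block across times, where numbers share no day (correlations of 0.163, 0.0339 and 0.162, each library's highest at its own number), gave 128. Of the genes differing between MTZ+ and MTZ-, 498 became 1282 with DESeq2, 331 with a replicate block within each time, 562 with the block across times, and 179 to 486 with 1 library left out. The single gene differing from rapamycin became 119 with DESeq2, 8 with the replicate block, 0 with the 12 MTZ+ libraries, 2 with a CPM minimum, and 0 to 25 with 1 library left out. The log2 fold change of mki67 turned to 0.057 with the replicate block and lay between -0.81 and 0.82 with 1 library left out (0.82 without MTZ+ 2dpi replicate 2), and that of scpp8 lay between -3.59 and 0.075 (0.075 without MTZ+ 2dpi replicate 1). The cause of these shifts was not tested. Genes under about 0.15 CPM rest on 3 counts or fewer in a library.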
